A study of Mus musculus with 32 samples.

Results

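Tanycytes that lacked a programme of 3 genes, Col25a1 (a collagen chain), Scn7a (a sodium channel subunit) and Adm (the vasodilator peptide adrenomedullin), made up 644 of the 5982 cells recovered from the mouse median eminence (ME), or 10.8% (95% Clopper-Pearson interval 9.99% to 11.6%). They were picked by their own transcript counts, as unique molecular identifiers (UMIs): at least 2 UMIs of Rax, which encodes the homeodomain factor of the tanycyte lineage, and at most 1 UMI summed over Col25a1, Scn7a and Adm. Cells with a sum of Gfap, Tgfb2, Rspo3 and Apobec2 of 4 or more, with 5 or more UMIs of the astrocyte gene Agt, of the fibroblast gene Dcn or of the cilia genes Ccdc153 and Tmem212 summed, or with 20 or more UMIs summed over the neuronal genes Snap25, Syt1, Stmn2 and Stmn3 were left out. Rax alone left 940 cells, the programme limit 719, the Gfap limit 662 and the Agt limit 649. Dcn removed 0 cells, the cilia genes 1 cell and the neuronal genes 4 cells. The levels of all these genes describe the choice and are not findings.

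The tissue came from C57B/L6 mice aged 40 to 47 days, of which 5 were fasted overnight for 16 h and the other 5 had normal chow back for 1 h at the end of such a fast. The ME of each condition was pooled, live single cells were sorted, and each pool was divided over 2 droplet libraries. The number that closes each cell barcode (1, 2, 3 or 4) is not matched to a library or a condition by any source used here, so fasted and refed cells could not be told apart, all cells count as 1 sample, and no test between groups was possible. Values are given for all cells of a set together and, singly, for each barcode number.

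Tanycytes are radial-glia-like cells that line the floor and lower walls of the third ventricle, with a cell body at the ventricle and a long process that runs into the hypothalamus or down to the portal capillaries. They form part of the barrier between the cerebrospinal fluid and the ME, carry hormones across it and set local thyroid hormone through deiodinases. By position they are called alpha tanycytes on the ventricular wall and beta tanycytes at the floor, with beta-2 tanycytes over the ME itself.

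Barcode numbers 1 to 4 held 181, 155, 143 and 165 of these tanycytes, between 10.4% and 11.1% of the cells of each number. A tanycyte of this set held a median of 4079.5 UMIs (1579 to 11849) and 1979 genes, with a median mitochondrial share of 4.68%. The 219 tanycytes that met the same limits but had 2 or more programme UMIs held a median of 5248 UMIs and a mitochondrial share of 5.71%. Their share of the cells of barcode numbers 1 to 4 was 4.75%, 3.88%, 3.24% and 2.62%. Only 3 of the 644 cells had a barcode sequence that also occurred under another number.

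A few cells carried the RNA of another cell type and weigh on sums over the set. In barcode number 1, 2 cells held 90.0% of the set's summed UMIs of Cga, a pituitary hormone subunit gene, and Chga, a granin gene. In barcode numbers 2 and 4, 3 cells held 65.0% of the UMIs of the microglial complement genes C1qa, C1qb and C1qc. Another 2 cells of number 2 held 78.8% of Acta2 and Rgs5, genes of vascular mural cells, and the remaining 2 cells were marked by myelin genes, Mobp and Mal among them. These cut-offs were set after seeing the data and mark 9 cells in all, of which 3 were in number 1, 5 in number 2, 0 in number 3 and 1 in number 4. They had a median of 7293 UMIs, and 2 of them were among the 4 doublet calls in the set. Results that rest on them are given with and without them. None of these cut-offs used astrocyte genes, so values without the 9 cells can still include cells with many UMIs of those genes.

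**Figure D1:**
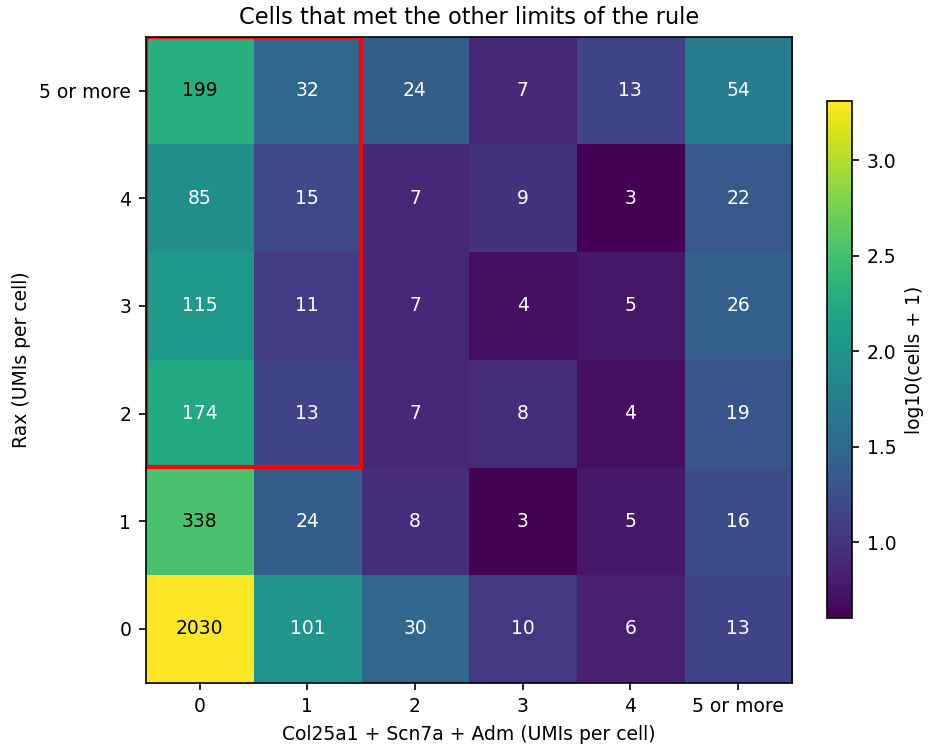
Number of cells by Rax UMIs (vertical axis, UMIs per cell) and by the summed UMIs of Col25a1, Scn7a and Adm (horizontal axis, UMIs per cell), among cells within the other limits. The colour shows log10 of the number of cells plus 1, the red frame encloses the 644 chosen cells, and 338 cells with 1 Rax UMI and 0 programme UMIs lie just below it.

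All 6 marker genes were found, but Dio3 in very few cells. S100a6, which encodes a small calcium-binding protein (chr3:90612882-90624181, GRCm38), reached 3938 CPM (UMIs per 1000000; exact Poisson interval 3863 to 4013), with 3823, 3664, 4100 and 4199 CPM in barcode numbers 1 to 4. Crym, the thyroid hormone-binding mu-crystallin (chr7:120186380-120202111), had 968, 752, 687 and 700.4 CPM, and 789 CPM over all (756 to 823). Both genes were far higher than in astrocytes (208 and 17.3 CPM) and microglia (69.3 and 9.74 CPM). Slit2, an axon guidance ligand (chr5:47983138-48307733), stood at 370.2, 364, 327 and 369 CPM, with 43.9 CPM in astrocytes and 8.59 CPM in microglia. Fezf2, a forebrain transcription factor (chr14:12342094-12348189), was low but even, at 61.3, 58.3, 78.8 and 65.7 CPM. It had 2.36 CPM in astrocytes and 0 UMIs in microglia, where a count of 0 allows up to 3 counts. Dio3, the deiodinase that inactivates thyroid hormone (chr12:110279068-110281097), had 40 UMIs in the set, or 26.3, 4.61, 15.4 and 10.5 CPM. It was seen in 2.48% of the cells, and 70.0% of its UMIs lay in 5 of them. Dio3 thus marks a small part of these cells, and Fezf2 was detected in a minority of them, as the shares below show. Rax is a gene of the rule, and the markers were chosen with earlier results of these data known. Their presence is therefore a description and not a separate result.

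Shares of cells with a UMI were compared after drawing 2000 UMIs from each cell, which left 633 of the 644 cells. S100a6 was then detected in 97.5% of the tanycytes without the programme, Crym in 56.6%, Slit2 in 49.4%, Fezf2 in 13.7% and Dio3 in 1.42%. In microglia, which should lack these genes and had a median of 3096 UMIs before thinning, the shares were 8.12%, 1.5%, 1.71%, 0% and 0.214%. Without thinning the 5 shares were 98.6%, 67.9%, 72.5%, 22.0% and 2.48%.

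**Figure D2:**
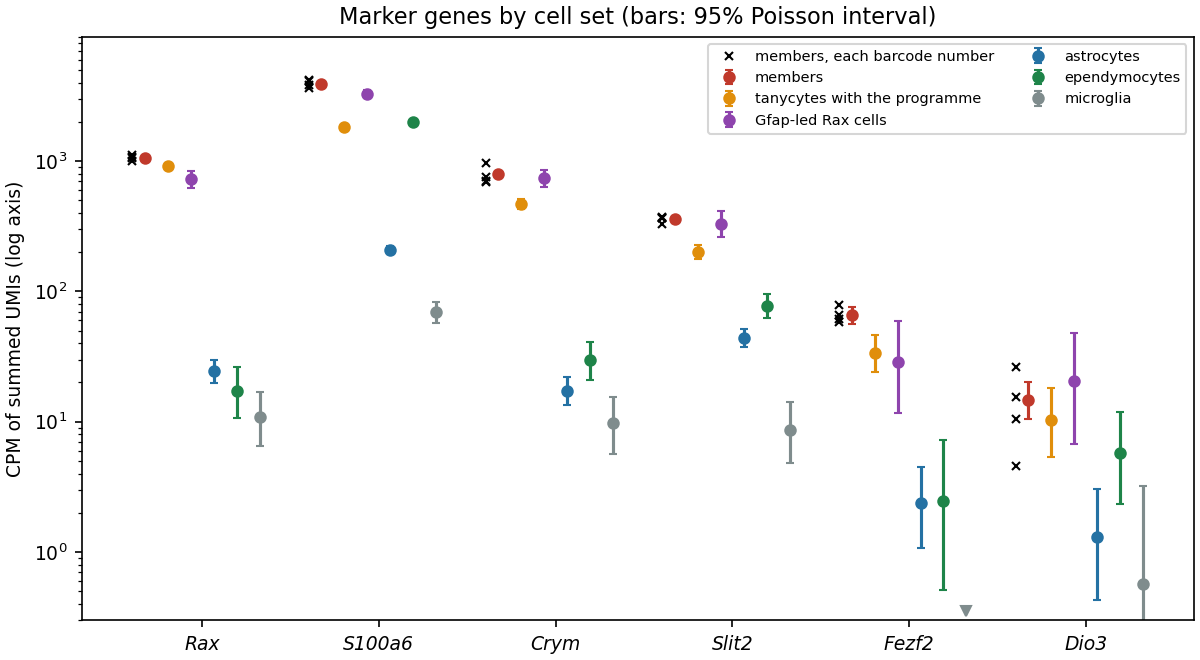
Level of the 6 marker genes (vertical axis, CPM of summed UMIs, log scale) in 6 cell sets, with 95% Poisson intervals as bars and the 4 barcode numbers of the tanycytes without the programme as crosses. S100a6, Crym and Slit2 sit higher in these cells than in tanycytes with the programme, astrocytes, ependymocytes and microglia, whereas the intervals of Dio3 overlap among the 3 Rax sets, and the triangle marks a count of 0.

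Several other genes differed in steps across the programme limit, and others did not. The cells were split by UMIs that the rule used, and Cldn10, Fndc3c1 and Necab2 are also among the genes named below for large ratios. The steps are therefore a description and no separate result. With 0 programme UMIs (573 cells), Cldn10, a claudin of paracellular junctions, had 190 CPM, with 1 UMI (71 cells) 519 CPM, just outside the limit with 2 UMIs (45 cells) 890 CPM and with 3 or more (174 cells) 1082 CPM. Fndc3c1, a fibronectin type III domain gene, stepped from 3.36 to 15.6, 34.2 and 183 CPM over the same cells. In the other direction, S100a6 had 4059, 3034, 2597 and 1624 CPM, and Necab2, a neuronal calcium-binding protein gene, 104, 43.8, 12.8 and 8.62 CPM. Frzb, a secreted WNT inhibitor, and Penk, the enkephalin precursor, had their lowest level at 0 programme UMIs (287 and 60.0 CPM) and their highest at 2 (642 and 240 CPM). Crym had no such steps, at 791, 779, 903 and 361 CPM, and was highest just outside the limit. Fezf2 had 69.6, 34.4, 8.56 and 39.9 CPM. At the Rax limit, the 362 cells with 1 UMI had 337 CPM of Crym and 2526 CPM of S100a6. The 187 cells with 2 Rax UMIs had 719 and 3847 CPM, close to the 816 and 3972 CPM of the 457 cells with 3 or more. Dio3 ran the other way, at 29.4, 26.7 and 10.2 CPM with 1, 2 and 3 or more Rax UMIs. The median depth was 4030 UMIs at 0 programme UMIs and 5253 UMIs at 3 or more, and the part of depth in these steps was not tested.

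**Figure D3:**
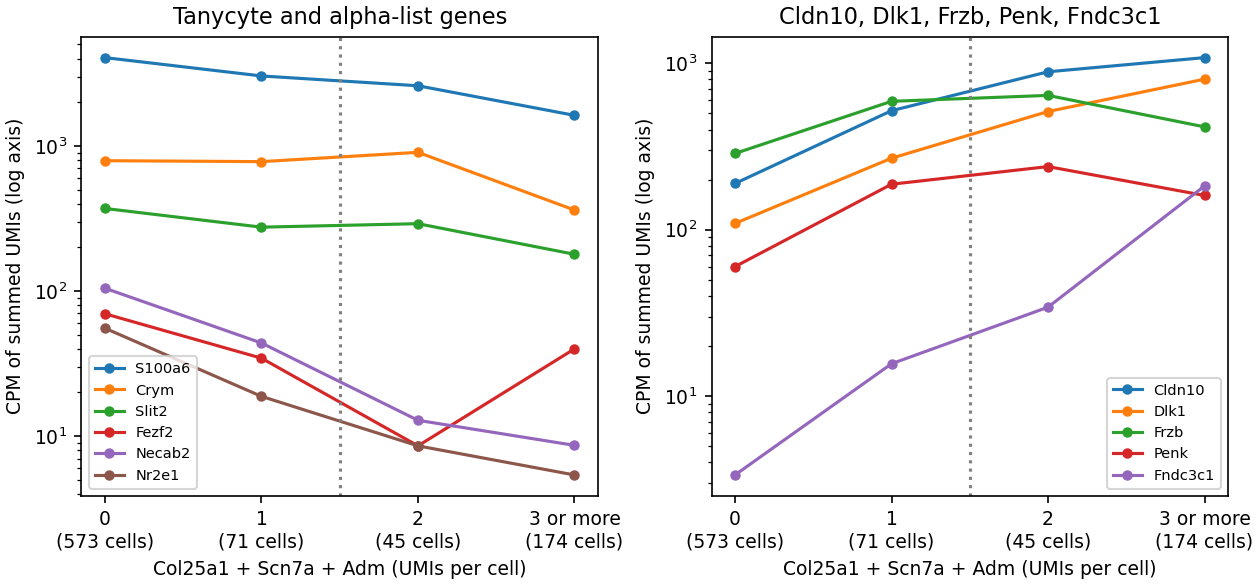
Level of 11 genes (vertical axes, CPM of summed UMIs, log scale) in Rax cells with 0, 1, 2 or 3 or more UMIs of Col25a1, Scn7a and Adm summed (horizontal axes), with the dotted line at the limit between tanycytes without and with the programme. S100a6, Necab2 and Nr2e1 step down from left to right, and Cldn10, Dlk1 and Fndc3c1 step up, whereas Crym peaks at 2 UMIs and Fezf2 is lowest there. The cells are split by genes of the rule, so the steps are a description.

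Most genes lay within 1 log2 unit between tanycytes with and without the programme. Of 8046 genes with at least 50 UMIs over both sets, 146 (1.81%) were higher by at least 1 log2 unit in the cells without the programme and 106 (1.32%) were lower, with a median of -0.03 over all. Ratios are log2 of CPM with 10 CPM added to each, and since cells were chosen by UMIs of the same libraries they are a description with no test. In each of the 4 barcode numbers, 53 of the higher and 45 of the lower genes were past 1. Without the 9 cells rich in other RNA (and 1 such cell with the programme) the counts were 135 and 107, of which 129 and 101 were among the first.

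With 10 CPM added, the largest log2 ratio was that of Ramp1, the accessory protein of the calcitonin gene-related peptide and related receptors. Its level was 400.2, 399, 538 and 508 CPM in barcode numbers 1 to 4, and 456 CPM over all against 57.7 CPM with the programme (log2 2.78). All 4 numbers lay above each number of the cells with the programme, and the thinned shares were 50.1% and 10.5%. In microglia 21.4% of cells had a Ramp1 UMI, and astrocytes (839 CPM) and ependymocytes (903 CPM) had more Ramp1 than either set of tanycytes. Adm, the ligand of related receptors, is a gene of the rule and had 0 UMIs in the set.

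Further named genes had log2 ratios above 2. Pcsk2, a prohormone convertase, had 105, 82.9, 92.5 and 106 CPM against 7.75 CPM with the programme (log2 2.60). Its ratio was above that of Ramp1 with 1 CPM added (3.49 and 2.96), without barcode number 1 (3.04 and 2.97) and for a programme sum of 0 against 4 or more (3.39 and 3.20). Necab2 had 96.3, 101, 108 and 85.1 CPM against 9.47 CPM (log2 2.46), and Pcp4, a calmodulin regulator, 294 against 63.7 CPM (log2 2.05). Pcsk2 and Necab2 were detected in 14.4% and 14.7% of thinned cells, well above the 1.28% and 0.641% of microglia. Cpne5, a calcium-dependent membrane-binding protein gene, was at 52.9 against 4.31 CPM (log2 2.14).

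Pltp, Fabp5 and Slc7a11 had ratios of similar size. Pltp, a phospholipid transfer protein gene, had 181, 150.5, 185 and 181 CPM, against 25 CPM with the programme (log2 2.40). Fabp5, a fatty acid-binding protein gene, had 166, 178, 250.2 and 191 CPM against 29.3 CPM (log2 2.37). Slc7a11, the cystine and glutamate exchanger, had 77.5, 33.8, 103 and 100.1 CPM against 8.61 CPM (log2 2.24), with the lowest value in number 2. Both Fabp5 (454 CPM) and Slc7a11 (450.0 CPM) were higher in astrocytes than in these tanycytes, whereas Pltp was highest in ependymocytes (1537 CPM).

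The remaining named genes have varied roles. Mef2c, a MADS-box factor, had 163, 169, 254 and 203 CPM against 30.1 CPM (log2 2.34), and Pou3f2, a neural POU factor, 55.0, 50.7, 65.1 and 53.8 CPM against 5.17 CPM (log2 2.12). Mef2c is also a microglial gene (618 CPM there). Its tanycyte value was 191 CPM without the 9 cells, and the part of microglial RNA in it was not tested. The tubulin gene Tubb2b (203 against 37.0 CPM), the microtubule destabiliser Stmn1 (627 against 149 CPM), the adhesion molecule Vcam1 (133 against 20.7 CPM) and the secreted Nell2 (117 against 21.5 CPM) all had log2 ratios from 2.00 to 2.22. The uncharacterised gene 2810459M11Rik had 38.5 against 2.58 CPM.

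**Figure D4:**
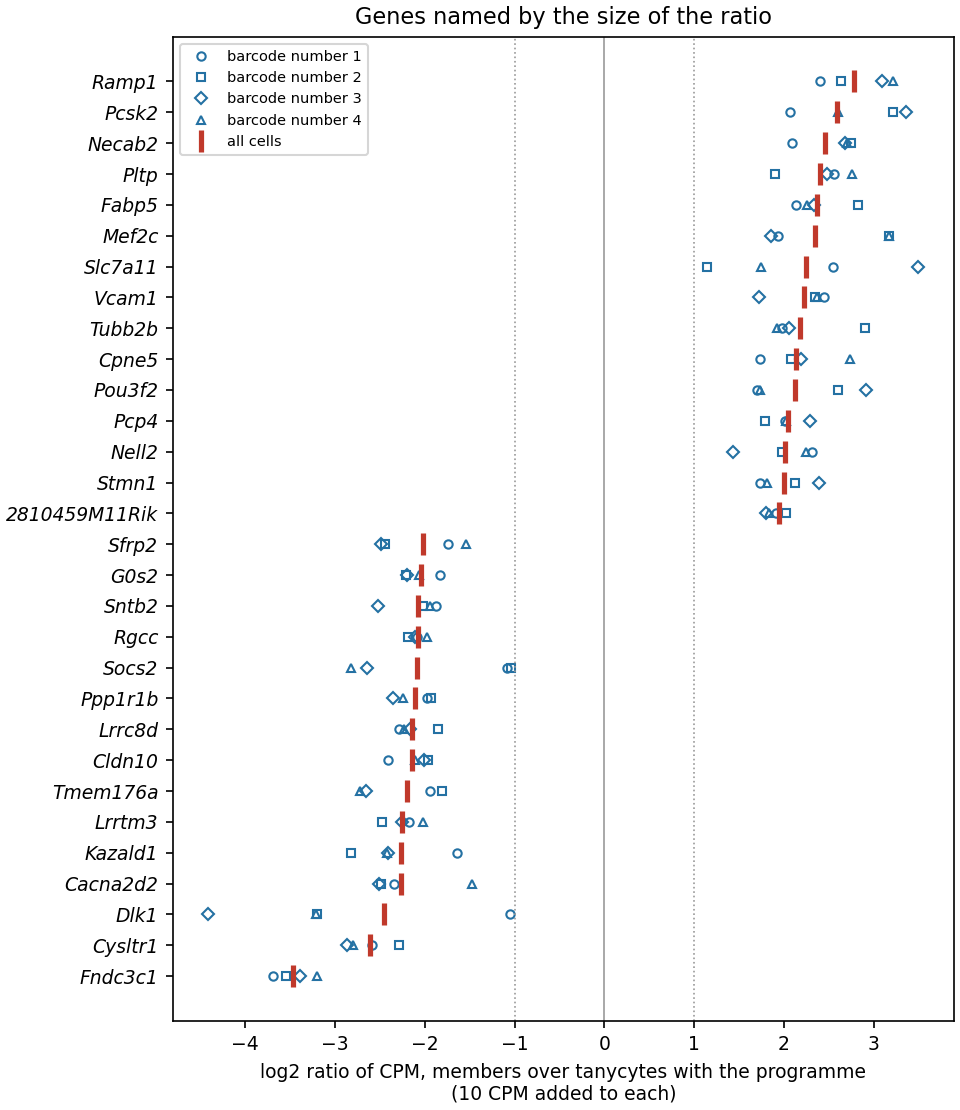
Log2 ratio of CPM (horizontal axis, 10 CPM added) of tanycytes without over tanycytes with the programme for the 15 genes named in each direction, as a red bar for all cells and 1 open symbol per barcode number. The genes were chosen with all 4 numbers on the same side of 0, and Dlk1 and Slc7a11 spread most widely over the 4 numbers.

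Genes lower in tanycytes without the programme were led by Fndc3c1, at 1.25, 6.14, 6.85 and 5.97 CPM against 153 CPM (log2 -3.46). Cldn10 had 190.1, 278, 262 and 197 CPM against 1044 CPM (log2 -2.14), and was detected in 25.6% of thinned cells against 71.7%. Dlk1, a Delta-like regulator of Notch, had 276, 67.6, 32.6 and 92.6 CPM against 745 CPM (log2 -2.45). The high value of number 1 came from few cells: 72.8% of Dlk1 UMIs lay in 5 cells, and without the 9 cells the level was 61.9 CPM and the log2 ratio -3.40. The leukotriene receptor gene Cysltr1 and the synaptic adhesion gene Lrrtm3 had only 1 and 4 UMIs in the whole set.

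Other genes lower in these cells included Ppp1r1b, the phosphatase inhibitor DARPP-32 (67.3 against 323 CPM), Rgcc, a cell cycle regulator (76.2 against 353 CPM), and G0s2, an inhibitor of triglyceride lipase (64.7 against 298 CPM). Tmem176a, a membrane protein gene, had 55.1 against 288 CPM, the chloride channel subunit gene Lrrc8d 26.3 against 150 CPM, and the cytokine signalling inhibitor Socs2 13.3 against 88.7 CPM. For these 6 genes the log2 ratio lay between -2.20 and -2.04. Cacna2d2, a calcium channel subunit gene, Kazald1, which encodes a secreted protein, the dystrophin-associated Sntb2 and the WNT antagonist Sfrp2 were all at or below 11.8 CPM without the programme.

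The lists of genes for tanycyte position differed in direction. Of the 7 alpha tanycyte genes tested, 6 were higher without the programme and 0 lower, with a median log2 ratio of 1.93 against -0.03 over all genes, of which 1.81% were higher and 1.32% lower. They were Necab2, Lyz2, Slc7a11, Nr2e1 (an orphan nuclear receptor of neural stem cells, 51.0 against 6.03 CPM), Vcan (the matrix proteoglycan versican, 99.1 against 28.4 CPM) and Cd59a (a complement inhibitor, 33.3 against 7.75 CPM). Lyz2, a lysozyme of myeloid cells, was high in number 2 only (20, 529.7, 13.7 and 8.96 CPM), with 91.7% of its UMIs in 5 cells. Without the 9 cells it was at 16 CPM, and the list had 5 higher genes and a median of 1.51. Summed over the list, the set had 530 CPM (411 CPM without the 9 cells), beside 86.1 CPM with the programme. Rax cells with a Gfap, Tgfb2, Rspo3 and Apobec2 sum of 4 or more had 1153 CPM, and astrocytes 569 CPM. A high sum was therefore not particular to these tanycytes. Slc17a8, a vesicular glutamate transporter gene of the list, had 29 UMIs in these cells and 0 UMIs with the programme, below the limit for testing. Of 4 beta-1 tanycyte genes, 0 were higher and Penk was lower (75.1 against 177 CPM), while Frzb (323 against 461 CPM), Fgf10 (42.2 against 61.1 CPM) and Pdzph1 (259 against 169 CPM) were within 1 log2 unit.

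Most thyroid hormone genes tested were within 1 log2 unit between the sets. Of 8 tested, 0 were higher and 1 was lower, beside 1.81% higher and 1.32% lower over all tested genes. The lower gene was Dio2, the activating deiodinase, at 16.3, 16.9, 18.9 and 10.5 CPM against 43.1 CPM. The receptor gene Thra had 407 against 306 CPM. Tshr, the thyrotropin receptor, had 34.4 against 23.3 CPM, and the transporter gene Slc16a10 had 0 UMIs.

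Among neural stem and radial glia genes, 4 of 17 were higher and 0 lower, beside 1.81% higher and 1.32% lower over all tested genes, and the list had a median log2 ratio of 0.28. These were the Notch target Hes5 (45.9 against 15.5 CPM), the radial glial lipid-binding gene Fabp7 (90.6 against 24.1 CPM), Nr2e1 and the inhibitory helix-loop-helix gene Id3 (63.2 against 12.9 CPM). Vim (497 against 406 CPM), Sox2 (206 against 158 CPM), Sox9 (315 against 282 CPM) and Hes1 (590.2 against 711 CPM) were within 1 log2 unit. Hes5, Fabp7 and Id3 were each higher in astrocytes, at 1073, 587 and 508 CPM. Of 7 homeobox and patterning genes, 0 were higher, and the eye-field factors Six3 (180.1, 166, 185 and 184 CPM against 386 CPM) and Six6 (73.8, 78.3, 80.5 and 101 CPM against 306 CPM) were lower. Lhx2, which acts with Rax in this lineage, was level at 145 against 165 CPM, and Nkx2-1, a factor of the ventral hypothalamus, had 142 against 252 CPM.

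Each signalling list had 0 or 1 gene past 1 in either direction, but few genes of each were tested. Over all tested genes 1.81% were higher and 1.32% lower. Of 6 FGF genes, the receptor gene Fgfr1 was lower (57.0 against 164 CPM) and 0 were higher. Of 7 WNT genes, the feedback gene Axin2 was higher (22.2 against 4.31 CPM) and Sfrp2 lower, and of 2 TGF-beta and BMP genes 0 were past 1 in either direction. Of 9 axon guidance genes, the ephrin receptor gene Ephb1 was higher (71.3, 70.6, 94.2 and 112 CPM against 31.0 CPM). Slit2 (359 against 201 CPM) and Nrp2, which encodes a semaphorin co-receptor, (196 against 99.9 CPM) were within 1 log2 unit, and Slit1 and Slit3 had 0 UMIs.

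Of 8 S100 genes, 3 were higher and 0 lower (1.81% and 1.32% over all tested genes), with a median log2 ratio of 0.68. The higher genes were S100a6, S100a10 (205 against 74.9 CPM), which encodes an annexin partner, and S100b (37.7 against 12.9 CPM), a gene of astrocytes and ependymocytes. Summed over the list, the set had 5966 CPM. Rax cells with a Gfap, Tgfb2, Rspo3 and Apobec2 sum of 4 or more had 6380 CPM. Of 12 lipid genes, 5 were higher and 0 lower, with a median of 0.33. They were Clu, a secreted chaperone that binds lipids (391, 332, 516 and 545 CPM against 176 CPM), Fabp5, Fabp7, the acyl-CoA synthetase gene Acsbg1 (68.4 against 14.6 CPM) and Plin2, a coat protein of lipid droplets (105 against 40.5 CPM). Apoe, the main lipid carrier of glia, was at 26084 against 18712 CPM, within 1 log2 unit. The tight junction list had 7 genes tested and only Cldn10 past 1. Of 8 glucose and lactate genes 0 were past 1 in either direction. The glucose transporter gene Slc2a1 had 82.5 against 137 CPM, and Slc2a2, the GLUT2 gene, had 0 UMIs, where a count of 0 allows up to 3.

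Immediate early genes were lower without the programme, with 6 of 7 tested past 1 (1.32% over all tested genes) and a median log2 ratio of -1.41. Fos, a component of AP-1, had 96.3, 81.4, 29.1 and 44.8 CPM against 237 CPM, Jun 57.5, 38.4, 61.7 and 74.7 CPM against 214 CPM and Junb 52.5, 73.7, 3.43 and 23.9 CPM against 156 CPM. Egr1, Ier2 and Dusp1 were also lower, and Hspa1a, a heat shock gene, was within 1 log2 unit (35.5 against 23.2 CPM). The summed level of the list was 323, 316, 154 and 252 CPM in barcode numbers 1 to 4, lowest in number 3. Microglia of the same suspension had 3515 CPM of the list, and the part of RNA from other cells was not tested.

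Receptors for metabolic hormones were scarce. The leptin receptor gene Lepr had 2.59 CPM, the ghrelin and GLP-1 receptor genes Ghsr and Glp1r had 0 UMIs, and of 7 receptor genes tested 0 were past 1. The orphan receptor gene Gpr50 was the highest tested here in thinned share, found in 27.6% of cells against 32.4% with the programme. Among secreted factors, 2 of 12 were higher and 3 lower, beside 1.81% higher and 1.32% lower over all tested genes. The higher genes were the granins Chgb and Scg2, with 81.0% and 60.6% of their UMIs in 5 cells, and 0 were higher without the 9 cells. The lower genes were Penk, the growth factor-binding gene Igfbp2 (8.14 against 39.6 CPM) and Vegfa, the angiogenic factor (19.6 against 63.7 CPM). The heparin-binding factor Ptn, at 3905, 4202, 3997 and 3701 CPM, was within 1 log2 unit of the 6333 CPM with the programme. Of 6 glutamate and GABA genes, the glutamate transporter gene Slc1a2 was higher (175, 144, 240 and 231 CPM against 56.8 CPM) and 0 were lower. Cycling genes were near 0, with Mki67 and Top2a at 1.85 and 1.11 CPM.

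Marker lists of other cell types were not all level between the sets. Over all tested genes, 1.81% were higher and 1.32% lower without the programme. Of 7 astrocyte genes tested 2 were higher (Slc1a2 and S100b), and the summed list had 1039, 914, 1239 and 1262 CPM in the 4 numbers against 679 CPM with the programme and 16903 CPM in astrocytes. In 13 cells there were at least 10 UMIs of Itih3, Ntsr2 and Slc1a2 summed, which was 25.6% of those UMIs. No cell was left out on this sum. Of 5 ependymocyte genes 3 were higher: Rarres2, the chemerin gene (411 against 179 CPM), the dynein light chain gene Dynlrb2 (542 against 226 CPM) and Tppp3, a tubulin-binding protein gene (374 against 126 CPM). Their levels in ependymocytes were 3553, 1590 and 1751 CPM. Of 5 microglial genes 4 were higher, and 0 of 4 without the 9 cells, when the summed list was 187, 230, 197 and 248 CPM. Both pars tuberalis genes tested, Cga and Chga, were higher, and 0 without the 9 cells. Of 2 endothelial genes Flt1, a VEGF receptor, was higher (30.7 against 1.72 CPM) and remained so at 31.5 CPM without the 9 cells, while the endothelial cadherin gene Cdh5 was at 0 UMIs. The macrophage genes F13a1, Cd163 and Lyve1 were at 0 UMIs as well. Of 7 myelin genes and 2 neuronal genes 0 were higher, and Meg3, a non-coding RNA, was lower (1606 against 5185 CPM). The part of these other cells in the ratios was not tested beyond the values without the 9 cells.

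The promoters of these genes were read for TAATTA, a core sequence bound by homeodomain proteins such as Rax and its own reverse complement, so that both strands were searched at once. RefSeq promoters of GRCm38.p6 (250 bases before to 50 after a start) were matched for 109 of the 146 higher and 84 of the 106 lower genes. The letters occurred in 7 of 140 promoters of higher genes (5.00%), 9 of 120 of lower genes (7.50%) and 206 of 8309 of all tested genes (2.48%), and in 5.29% of the 32851 promoters of the table. The 4 promoters of the marker genes that were matched held 0. Of the genes named in either direction, Cldn10 (lower) and Mef2c (higher) carry the letters and are shown from 5' to 3' on the plus strand, with TAATTA in capitals. They lie at chr14:118787621-118787920 and chr13:83523406-83523705, with the letters starting 197 and 102 bases before the start site.
Cldn10: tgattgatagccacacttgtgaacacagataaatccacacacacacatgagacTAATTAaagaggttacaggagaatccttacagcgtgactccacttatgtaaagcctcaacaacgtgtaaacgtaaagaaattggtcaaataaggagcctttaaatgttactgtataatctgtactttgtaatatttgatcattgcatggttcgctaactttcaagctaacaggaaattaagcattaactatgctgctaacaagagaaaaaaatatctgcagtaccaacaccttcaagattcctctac
Mef2c: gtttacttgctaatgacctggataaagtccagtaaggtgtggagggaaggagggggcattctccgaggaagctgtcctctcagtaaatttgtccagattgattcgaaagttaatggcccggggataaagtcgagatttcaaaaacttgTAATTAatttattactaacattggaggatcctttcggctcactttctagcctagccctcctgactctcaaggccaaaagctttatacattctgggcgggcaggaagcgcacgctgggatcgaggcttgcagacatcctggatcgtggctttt
Other promoters of both genes lacked the letters, and a match is a description, not a binding site.

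Astrocytes, the other main glia of the tissue, differed from tanycytes without the programme in many genes. Of 9778 genes tested, 1045 were higher (10.7%) and 833 lower (8.52%), with a median of 0.10. The transcript 6330403K07Rik had 16089 against 371 CPM (log2 5.40), Crym 789 against 17.3 CPM, Frzb 323 against 6.83 CPM and Mia, a secreted matrix-interacting protein gene, 1162 against 49.9 CPM. Map1b, which stabilises microtubules of long processes (714 against 37.0 CPM), the cilia gene Cfap126 (528 against 25.7 CPM) and the heparan sulphate proteoglycan gene Gpc3 (224 against 6.04 CPM) followed. Itih3, a hyaluronan-associated protein gene, had 68.4 against 3698 CPM (log2 -5.56), the gap junction gene Gjb6 34.0 against 1578 CPM and the neurotensin receptor gene Ntsr2 85.4 against 2985 CPM. All 8 astrocyte genes and 9 of 13 lipid genes tested were lower, as were 6 of 7 glutamate and GABA genes, with Glul, the glutamine synthetase gene, at 666 against 3360 CPM. Astrocytes were chosen by Agt, a gene of the astrocyte list, so the values of that list partly restate the choice. The regional factors Six3 and Six6 were higher than in astrocytes (log2 1.38 and 1.68), and Irx3 (0 against 36.8 CPM) and Irx5 (1.11 against 48.3 CPM) were lower.

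Ependymocytes are the multiciliated cells of the ventricular wall. Of 8359 genes tested, 356 were higher in tanycytes without the programme (4.26%) and 779 lower (9.32%), with a median of 0.07. Crym (log2 4.33), 6330403K07Rik (16089 against 1053 CPM) and Gpc3 (224 against 5.78 CPM) were again high, joined by Ptn (3946 against 288 CPM) and Thrsp, a lipogenic nuclear protein gene (804 against 57.8 CPM). Cga, in this comparison too, came from few cells. Tm4sf1, a tetraspan membrane gene, had 12.6 against 1040 CPM (log2 -5.54), the surface antigen gene Cd24a 11.8 against 852 CPM, and the cilia genes Sntn and Ccdc33 1 UMI each in the set against 296 and 242 CPM. S100a6 (1997 CPM in ependymocytes) and Mia (2316 CPM) were within 1 log2 unit, and Dynlrb2 and Cfap126, both of cilia, were lower by 1.54 and 1.02 log2 units. Of 5 ependymocyte genes tested 4 were lower and 0 higher. Ependymocytes were chosen by Ccdc153 and Tmem212, genes of the same list, so this partly restates the choice.

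Among genes with many UMIs, these tanycytes differed little between barcode numbers. Of 1114 genes with at least 400 UMIs, the median log2 ratio of the highest to the lowest number was 0.22, and 2 genes were past 1. Fos and Junb fell below that limit and spread more widely, as given above. Resp18, a secretory granule gene, had 418, 47.6, 129 and 119 CPM, and 36.1, 45.8, 129 and 121 CPM without the 9 cells, when numbers 3 and 4 were the higher. Sparcl1, a matrix protein gene of astrocytes, had 178, 178, 274 and 391 CPM in these tanycytes, and 179, 165, 274 and 396 CPM without the 9 cells. B2m and H2-D1, genes of antigen presentation, and the lysosomal protease gene Ctsd were high in number 2 (378, 344 and 545 CPM), and without the 9 cells they had 157, 198 and 276 CPM there, beside 183 to 190.2, 166 to 194 and 284 to 311 CPM in the other numbers. Ptgds, the prostaglandin D synthase gene of myelin and meninges, had 720.4, 719, 408 and 439 CPM, and 303, 283, 408 and 442 CPM without the 9 cells, so the order of its numbers turned. Tubb2b had 158, 163, 274 and 236 CPM and the chaperone gene Hsp90aa1 730.4, 553, 932 and 892 CPM. Which of these numbers are fasted or refed is not known, and the differences were not tested.

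Within the set, cell-to-cell variance in thinned counts was close to the mean for most genes (median ratio 1.01 over 5679 genes). The 10 genes with the highest ratio included Cga, Chga, Lyz2, Ctss and C1qb, which lay in few cells, and the abundant Malat1, Cst3 and Apoe. The first grouping of the cells by graph clustering, with the genes of the rule left out, gave 6 groups, of which the leading genes of the first and second were Cga and Lyz2, from single cells. The grouping was therefore repeated, after seeing this, on the 635 cells without the 9, and again gave 6 groups, here A to F. The genes of the rule were left out here too, and since the genes given next were among those that could shape the groups, their values are a description.

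Groups A and B carried contrasting genes. Group A (215 cells, median 3607 UMIs) was led by the TNF receptor gene Tnfrsf19 (70.1 against 14.1 CPM in the other cells), the WNT inhibitor gene Sfrp1 (67.6 against 16.8 CPM) and Pou3f2 (102 against 37.3 CPM). Group B (141 cells, 4729 UMIs) was led by Dlk1 (193 against 19.2 CPM, with 63.2% of its UMIs in 5 cells), the glutamate receptor gene Gria2 (185 against 46.9 CPM), Penk (162 against 49.4 CPM), Meg3 (3089 against 1090 CPM) and Six6 (173 against 56.0 CPM). Frzb had 63.8 CPM in group A and 588 CPM in group B, and Slc7a11 116 and 6.16 CPM. Fezf2, 1 of the 6 markers, had 108 and 18.5 CPM, so that it was low where Frzb and Six6 were high. Fos had 10.2 CPM in group A and 129 CPM in group B.

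Group C (130 cells, 4586.5 UMIs) shared Frzb (607 CPM) and Six6 (173 CPM) with group B and had the highest Crym (1154 CPM) of the 6 groups. It was led by Sparcl1 (719 against 110.3 CPM), the potassium channel gene Kcnk1 and Slc1a2 (491 against 112 CPM), and Itih3, Ntsr2 and Aqp4 were among its 10 leading genes. Sparcl1 and Slc1a2 stood at 6156 and 1492 CPM in astrocytes, and the part of astrocyte RNA in this group was not tested. Group D (71 cells, 4129 UMIs) was led by Spry2, an inhibitor of FGF signalling (141 against 18.4 CPM), the zinc transporter gene Slc39a1 (394 against 68.9 CPM) and the actin gene Actb (6436 against 1442 CPM). Its cells also held 700.2 CPM of the receptor gene Notch2, with 340 and 348 CPM in groups C and E and 68.9 to 81.1 CPM in groups A, B and F.

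The 2 smallest groups were E and F. Group E (40 cells, 3482.5 UMIs) was led by 1500015O10Rik, the augurin gene (835 against 50.6 CPM, in 90.0% of cells against 15.6%), the cell cycle inhibitor Cdkn1c (313 against 37.8 CPM) and Epha4, an ephrin receptor gene with 60.9% of its UMIs in 5 cells. Ppp1r1b, lower in the whole set than with the programme, was also among the leading genes of group E (285 against 56.6 CPM, in 57.5% of cells). This group had the lowest Crym (167 CPM) and Frzb (20.9 CPM) of the 6 groups and the highest Fezf2 (174 CPM) and Cldn10 (620 CPM). Group F (38 cells, 3629 UMIs) was led by Igfbp5 (480 against 51.9 CPM, with 53.5% of its UMIs in 5 cells), Mef2c (1101 against 136 CPM, in 97.4% of cells), Cpne5 (338 against 36.6 CPM) and Cited1, a transcriptional coactivator gene (567 against 76.9 CPM). It held most Dio3, at 209 CPM against 0 to 6.55 CPM in groups A to E, as well as Slc17a8 (149 CPM) and the lactate dehydrogenase gene Ldha (831 CPM). Mef2c is a named gene of the comparison with the programme, and in groups A to E it lay between 69.6 and 199 CPM.

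Every group held cells of all 4 barcode numbers. Group A had 54, 49, 55 and 57 cells of numbers 1 to 4, group B 42, 43, 32 and 24, group C 38, 25, 25 and 42, and group D 22, 17, 10 and 22. Group E had 15, 10, 6 and 9 cells and group F 7, 6, 15 and 10. Each was set beside the group of the first grouping that held most of its cells. For groups A to F, 84.2%, 90.8%, 58.5%, 98.6%, 80.0% and 100% of the cells lay in that match, and they made up 94.3%, 73.6%, 93.8%, 58.3%, 84.2% and 97.4% of its cells.

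**Figure D5:**
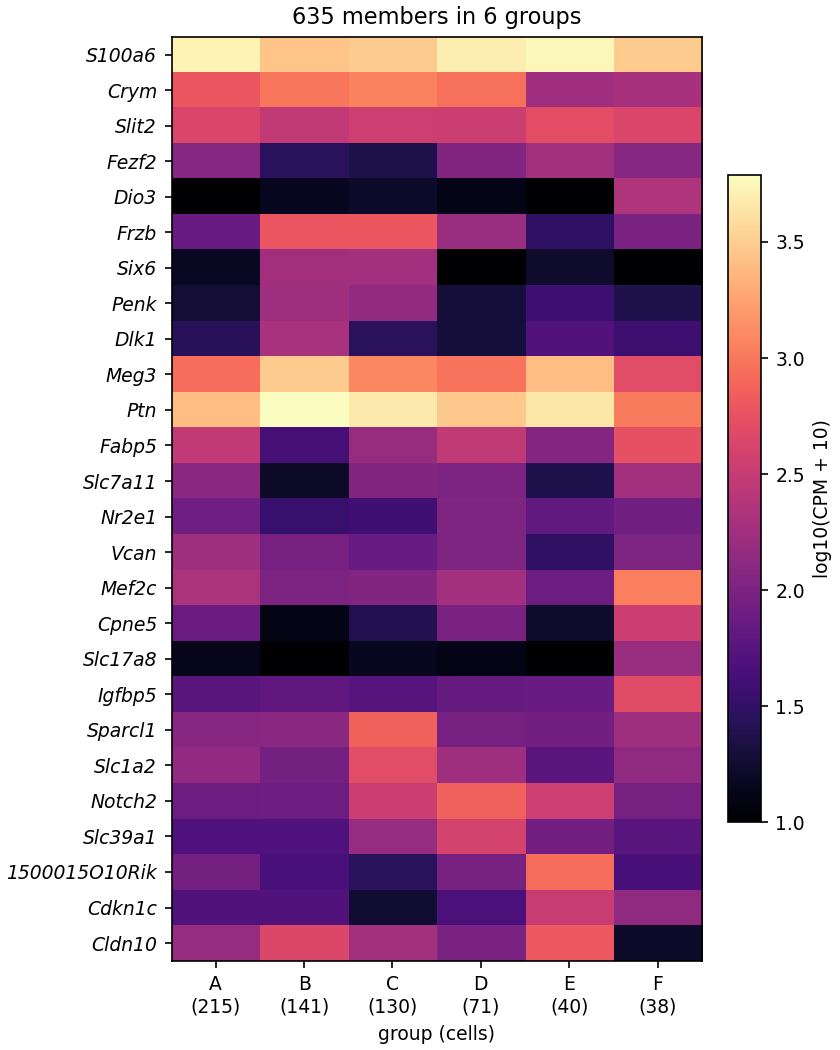
Level of 26 genes (rows, colour as log10 of CPM plus 10) in the 6 groups A to F of the 635 cells (columns, with the number of cells). Frzb, Six6 and Penk are bright in groups B and C, Fezf2 is darkest there, and Dio3, Slc17a8, Mef2c and Igfbp5 are brightest in group F.

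Pairs of genes were also counted in single cells. They were picked from these groups after their values were seen and counted in the cells that formed the groups, so the shares restate the grouping and are no separate result. After thinning, Frzb was detected in 68.8% of the 64 cells with a Six6 UMI and in 25.8% of those without. It was in 55.4% of the 56 cells with a Penk UMI and 27.7% of those without. With a Slc7a11 UMI the share was 13.2%, against 32.2% without, and with a Nr2e1 UMI 15.9% against 31.8%. Crym was in 77.0% of the cells with Frzb and 47.7% of those without, and Fezf2 in 4.69% of those with Six6 and 14.8% of those without. For Necab2, also of the alpha list, Frzb was in 32.3% of the cells with a UMI and 29.8% of the others.

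In a clustering of all 5982 cells, 592 of the 644 cells (91.9%) fell in clusters named tanycyte-like from their markers, which held 1301 cells and 218 of the 219 tanycytes with the programme. Among these clusters, 1 held 380 of the 644 cells and 5 of the 219, another 181 and 140, and another 0 and 73. Most tanycytes with the programme thus shared a cluster with cells without it. Of the 644 cells outside tanycyte-like clusters, 28 were in 1 unnamed cluster of 338 cells, led by Gfap, Tgfb2 and Apobec2, and 14 in astrocyte-like clusters. There were 3 in microglia-like, 2 each in pars tuberalis-like, mural-like and mature oligodendrocyte-like and 1 in OPC-like clusters, and 0 in ependymocyte-like or neuron-like clusters. This clustering kept the genes of the rule, and Rax is among the markers that named clusters tanycyte-like. Cilia and neuronal genes of the rule are likewise among the ependymocyte and neuron markers. The places of the cells therefore partly restate the rule and are no separate result.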

How the data were processed

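Single cells of the mouse median eminence were profiled with 10x 3' V2 libraries. The authors mapped reads to GRCm38 (mm10) and counted UMIs with Cell Ranger 2.0, per the labels and the paper; the annotation release is not given in the sources used here. The deposited matrix holds whole-number counts, not normalized, for 27998 genes and 5982 cells (29288898 UMIs), and 27645 gene IDs matched symbols in GENCODE vM21. The 32 sample records are sequencing chunks of 4 libraries and were not taken as replicates. There were 0 unused per-sample columns.

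UMIs were summed over the cells of a set and expressed per 1000000 (CPM) with exact Poisson intervals at the 95% level, and shares of cells with exact Clopper-Pearson intervals. Neither covers more than counting error, as the UMIs within a cell depend on each other. A count of 0 was read as a limit of 3 counts. Genes with at least 50 UMIs over both sets were compared by the log2 ratio with 10 CPM added and called past 1. The genes of the rule were left out of these counts. Comparison sets were tanycytes with a programme sum of at least 2 and cells led by Gfap (the Gfap, Tgfb2, Rspo3 and Apobec2 sum at 4 or more, 53 cells). The others were astrocytes (Agt at 5 or more, 1343 cells), ependymocytes (Ccdc153 and Tmem212 sum at 5 or more, 242 cells) and microglia (C1q sum at 20 or more, 521 cells). Astrocytes, ependymocytes and microglia also had to hold fewer than 2 UMIs of Rax. Astrocytes met the programme, Dcn, cilia and neuronal limits of the rule as well, and ependymocytes its Agt, Dcn and neuronal limits. Ratios are descriptions: with 1 sample no test was run.

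Cells were grouped with scanpy 1.11.5 (2000 variable genes, 30 principal components, 15 neighbours, Leiden resolution 0.5 for the tanycytes and 1 for all cells, seed 0). Scrublet, run per barcode number, called 50 cells (0.836%), which were kept. The comparison was tested on simulated counts: of 200 genes changed 4-fold, 88.5% of those against tanycytes with the programme (7960 genes), 83.0% against astrocytes (9755 genes) and 87.0% against ependymocytes (8315 genes) were found past 1, and 0% of unchanged genes. The simulation drew summed counts without differences between cells or barcode numbers, so its 0% does not cover genes raised by few cells. Against tanycytes with the programme, 14 of the 146 higher and 8 of the 106 lower genes had at least 50% of their UMIs in the set in 5 cells.

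Named genes are the markers and rule genes, genes of 35 lists at 20 CPM or more or called, the 15 largest ratios in each direction against tanycytes with the programme and the 10 against astrocytes and ependymocytes (past 0 the same way in all 4 numbers), the 10 with the largest spread over barcode numbers, the 10 with the largest variance over mean, and the 5 leading genes of each group. Slc17a8, genes at or near 0, the genes read in groups A to F and the pairs read for co-detection were added after their values were seen. The members and the lists were chosen with earlier results of these data known. Some genes of the lists and of the myelin sum are not reported here.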

Additional observations from a re-analysis of the deposited data

Results flagged for a closer look

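Of 38 values screened over the 4 barcode numbers (marker genes and summed lists), 6 had a highest or lowest number set apart from the rest by more than Dixon's 95% limit for 4 values. Chance gives this in about 1 in 20 such values. Slit2 was low in number 3, at 327 CPM beside 364 to 370.2 CPM, and at 327 CPM beside 369.9 to 381.8 CPM without the 9 cells rich in other RNA, when the gap was under the limit. The alpha tanycyte list summed to 871 CPM in number 2, beside 409 to 444 CPM, and to 366 CPM there without the 9 cells, when Lyz2 was lower. The TGF-beta and BMP list, without the genes of the rule, had 73.2 CPM in number 4, beside 87.4 to 89.1 CPM, and 69.5 CPM beside 80.1 to 87.7 CPM without the 9 cells, under the limit. The hormone receptor list had 449.5 CPM in number 4, beside 365 to 375 CPM, and without the 9 cells it was still past the limit, at 454 CPM beside 373 to 378 CPM. The mural list had 186 CPM in number 2, beside 20 to 37.7 CPM, and 32.7 CPM there without the 9 cells. The pars tuberalis list had 1989.8 CPM in number 1, beside 36.9 to 112 CPM, and 56.7 CPM there without the 9 cells. Of the 6 values, the hormone receptor list alone was past the limit without the 9 cells. The differences between numbers were not tested.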

How the results depend on the processing

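The set is sensitive to the limits of its rule. Its share of 10.8% was 16.8% with Rax at 1 UMI or more, 7.64% with Rax at 3 or more, 9.58% with the programme at 0 and 7.52% in cells thinned to 2000 UMIs. Counts of genes past 1 moved mainly with the pseudocount. Against tanycytes with the programme (146 higher, 106 lower) they were 284 and 191 with 1 CPM added, 33 and 28 with 50 CPM, and 68 and 39 with at least 200 UMIs per gene. Thinning gave 143 higher and 70 lower genes, of which 87 and 50 were among the first, and cells with a programme sum of 0 set against 4 or more gave 255 higher. Against astrocytes (1045 and 833) they were 387 and 346 with 50 CPM, and 665 were higher with at least 200 UMIs. Against ependymocytes (356 and 779), 664 were higher with 1 CPM, 92 and 317 past 1 with 50 CPM, 183 and 295 with at least 200 UMIs, and 499 lower after thinning. Adding more CPM shrinks every ratio, and asking for 200 UMIs left 3262 of the 8046 genes tested against tanycytes with the programme. The cause of the changes after thinning was not tested. Dio3 (14.8 CPM) was at 10.2 CPM with Rax at 3 or more, S100a6 (3938 CPM) at 4059 CPM with the programme at 0, and the first grouping of the 644 cells gave 3 groups after thinning, 4 at resolution 0.25 and 8 at resolution 1 in place of 6. Groups A to F were not regrouped under these settings.

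With each barcode number left out in turn, Crym lay between 714 and 818 CPM, Dio3 between 9.98 and 18.0 CPM and S100a6 between 3852 and 4025 CPM. The low values of Crym and Dio3 were those without number 1. The other main values stayed within their interval or within 1.5 times under the alternatives tried. No paired analysis was possible because the barcode numbers are not tied to libraries or conditions and no test was run. With 177 UMIs of Fezf2 and 40 of Dio3, depth limits what can be said of both.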
